A study of Mus musculus with 18 samples.

Results

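Metallothioneins and zinc transport are described here through 8 genes of the mouse liver: the metallothioneins Mt1 and Mt2, the zinc-sensing transcription factor Mtf1, the importers Slc39a14, Slc39a5 and Slc39a4, and the exporters Slc30a1 and Slc30a10. The genes were taken by symbol from a list and matched to Ensembl identifiers, and all 8 were found among the 28030 genes of the deposited table. All 8 also passed the filter on low counts, as did 12477 genes in all. Mt1 and Mt2 were chosen by measured values, their log2 fold changes between fasted and fed mice in an earlier analysis of these libraries, so for these genes that contrast is given as a description with no test. Whether the values of the other 6 had been seen when the list was made is not recorded.

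The libraries came from pericentral (PC) and periportal (PP) hepatocytes of wild-type male C57BL/6J mice, 12 weeks old and on normal chow, isolated by digitonin. Before the experiment all mice were trained for 3 days to fast for 16 h overnight and eat in the daytime. On the day of the experiment every group had chow and water with 20% sucrose until clock hour 13. Fed mice were killed then, after 4 h of feeding. For the fasted groups chow and sucrose water were taken away at that hour, and they were killed 8 h later, at clock hour 21, or 24 h later, at clock hour 13 of the next day, so the 8 h group was also taken at another hour of the day than the others. Each of the 6 groups had 3 libraries.

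Metallothioneins are small cysteine-rich proteins that bind zinc and copper in the cytosol, and liver is one of their main sites of synthesis. Free zinc activates MTF1, which binds metal response elements (MREs) in the promoters of the metallothionein genes and of Slc30a1. Glucocorticoids also induce the metallothioneins. SLC39A (ZIP) proteins move zinc into the cytosol and SLC30A (ZnT) proteins move it out. SLC39A14 also carries manganese and iron, and SLC30A10 is known mainly as a manganese exporter.

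Mt1 and Mt2 lie next to each other on chromosome 8 of GRCm38, at chr8:94179082-94180327 and chr8:94172664-94173568 on the forward strand, with 5513 bases between them. Their coding sequences are shown because the 2 genes are similar, and a count for one could in principle hold reads of the other. In the 2 lines that follow, capitals mark the bases that differ between the genes.

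Mt1 coding sequence, 5′ to 3′: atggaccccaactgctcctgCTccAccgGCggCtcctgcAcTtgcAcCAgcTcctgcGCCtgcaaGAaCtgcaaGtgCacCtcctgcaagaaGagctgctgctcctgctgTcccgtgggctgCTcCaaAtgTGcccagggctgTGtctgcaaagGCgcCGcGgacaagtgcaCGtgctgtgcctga

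Mt2 coding sequence, 5′ to 3′: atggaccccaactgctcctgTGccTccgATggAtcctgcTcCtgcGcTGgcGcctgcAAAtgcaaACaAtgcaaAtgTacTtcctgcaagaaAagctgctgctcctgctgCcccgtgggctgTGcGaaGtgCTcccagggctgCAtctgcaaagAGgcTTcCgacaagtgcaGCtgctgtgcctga

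Both coding sequences have 186 bases with 20 cysteine codons. They differ at 38 bases, of which 22 are at the third position of a codon, and are identical at 79.6% of positions. The longest identical run is 20 bases, shorter than the 31 bases that were compared as words. No word of 31 bases in the transcripts of Mt1 occurred in those of Mt2. Mt1 shared no such word with any other gene, whereas 58.1% of the words of Mt2 also occurred in another gene, of which 330 were in Gm45774, a gene that is not among those of the table used here, and 3 in Pip5k1a.

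Promoter sequences from RefSeq (build GRCm38.p6) were matched for 6 of the 8 genes, with none for Slc39a14 and Slc39a4. They run from 250 bases before the start to 50 bases after it. They were searched on both strands for the MRE core, written TGCACNC or TGCGCNC, where N is any base. The promoters of the metallothioneins are shown because they hold several matches, and that of Slc30a10 because it is the other gene with at least 3 matches and because its counts moved most among the transporters. Capitals mark the matches, and a run of capitals longer than 7 bases holds overlapping matches on opposite strands.

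Mt1, chr8:94178839-94179081, forward strand: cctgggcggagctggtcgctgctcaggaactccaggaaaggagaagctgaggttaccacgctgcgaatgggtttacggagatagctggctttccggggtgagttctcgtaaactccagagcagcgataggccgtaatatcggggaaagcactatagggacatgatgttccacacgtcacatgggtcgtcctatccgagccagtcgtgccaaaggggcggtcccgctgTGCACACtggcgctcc

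Mt1, first 30 bases from the RefSeq start, chr8:94179089-94179118: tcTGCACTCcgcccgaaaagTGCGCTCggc

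Mt2, chr8:94172368-94172617, forward strand: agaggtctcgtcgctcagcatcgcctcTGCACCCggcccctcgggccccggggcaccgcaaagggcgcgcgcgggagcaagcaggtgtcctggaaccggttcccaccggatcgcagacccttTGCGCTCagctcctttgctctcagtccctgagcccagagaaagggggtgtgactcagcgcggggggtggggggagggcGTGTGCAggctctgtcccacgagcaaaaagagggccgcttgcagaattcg

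Mt2, first 30 bases from the RefSeq start, chr8:94172618-94172647: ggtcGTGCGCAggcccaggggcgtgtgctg

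Slc30a10, chr1:185454598-185454847, forward strand: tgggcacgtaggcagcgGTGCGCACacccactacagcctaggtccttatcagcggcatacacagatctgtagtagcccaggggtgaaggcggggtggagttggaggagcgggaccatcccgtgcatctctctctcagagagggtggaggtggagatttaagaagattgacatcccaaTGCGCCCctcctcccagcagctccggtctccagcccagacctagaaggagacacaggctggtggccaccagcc

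The Mt1 window held 3 matches, at -23 to -17, 3 to 9 and 21 to 27, counting the first base from the RefSeq start as 1. The longest coding transcript of Mt1 in GENCODE M21 starts later, at chr8:94179241, beyond the end of the window. All 3 matches lie before that later start, and the bases just before it were not searched. The Mt2 window held 4, starting at -223, -128, -50 and 5. Slc30a10 held 3, of which 2 overlap, starting at -233 and -232, Slc30a1 held 2, the first of the 2 windows of Slc39a5 held 1, and Mtf1 held none. Of 32851 promoters of the same length, 25.7% held at least 1 match and 1.97% held 3 or more. A match of these letters is a description of the sequence and not a measured site. Other motifs were sparser in these windows. The antioxidant element core TGACNNNGC (12.4% of promoters hold it) had 1 match in Mt2, 1 in Slc30a1 and 2 in the second window of Slc39a5. The short glucocorticoid element AGAACA or GGAACA (31.3%) had 1 match each in Mt1, Mtf1 and the first window of Slc39a5, and none in Mt2.

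**Figure D1:**
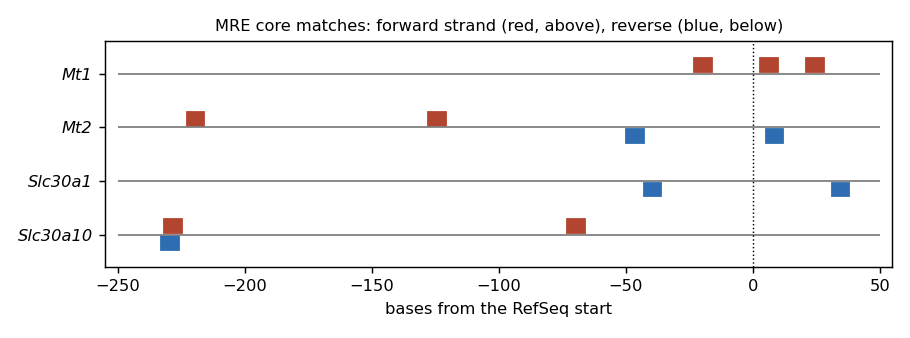
Position of MRE core matches from 250 bases before to 50 bases after the RefSeq start of 4 genes, in bases from the start (dotted line); red boxes above the line are forward-strand matches and blue boxes below it reverse-strand matches. Mt2 has 4 matches, Mt1 and Slc30a10 have 3 each and Slc30a1 has 2. For Slc30a10, 2 of the 3 overlap on opposite strands.

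Levels are given as CPM, counts scaled to a common library total, computed from estimated counts that summed to 18400000 to 26400000 per library. The pericentral markers were lower in periportal cells for 8 of 8 genes in the fed state, 8 of 8 after 8 h and 7 of 8 after 24 h, and the periportal markers were higher for 7, 6 and 5 of 8, so the labels held at group level. The second pericentral library at 24 h stood apart: its Glul, a pericentral glutamine synthetase, was at 111 CPM against 928 and 707 CPM in the other 2, and its periportal Cyp2f2 at 793 CPM against 345 and 322 CPM. Without it, 3 of the differences called below for members and other zinc transporters that use the 24 h pericentral group lost their call. They were Slc39a5 from 8 to 24 h and Slc39a9 and Tmem163 against fed, and their values without it stand beside them. Genes of the further lists were not checked in this way. Markers of other cells were measured too, as sums over each list. Red blood cell genes ranged from 32 to 92.3 CPM and sinusoidal endothelial genes from 3.84 to 37.7 CPM. Kupffer cell and leukocyte genes ranged from 0.485 to 27.0 CPM and stellate genes from 0.86 to 16.0 CPM. Of the red blood cell genes, Alas2 had group means of 36.2 to 60.7 CPM, while those of the globin genes ranged from 0.023 to 7.86 CPM. In fed cells the endothelial sum was 3.84 to 6.18 CPM in pericentral and 13.5 to 15.8 CPM in periportal libraries. The Kupffer cell and leukocyte sum was 1.21 to 2.26 against 5.61 to 9.7 CPM. At 8 h and 24 h these ranges overlapped, but all 8 Kupffer cell and leukocyte genes tested were above 0, periportal minus pericentral, in each state, uncalled. The part of such cells in the zone differences below was not tested. In these bulk samples, fewer cells of a type and less RNA per cell cannot be told apart. The sources do not say whether libraries came from separate mice, so p-values measure the spread between these libraries only.

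Per kilobase of transcript, Mt1 and Mt2 were the most abundant of the 8 genes in every fasted group. In fed pericentral cells Mt1 (14.7) and Mt2 (7.51 CPM per kilobase) lay below Slc39a14 (70.1). At 24 h in periportal cells Mt1 reached a level of 630 and Mt2 of 592 CPM per kilobase, against 18.2 and 5.03 in fed periportal cells. Slc39a14 was the most abundant transporter at every point, at 70.1 to 123 CPM per kilobase. Mtf1 lay at 2.08 to 2.52 and Slc39a5 at 0.197 to 0.962 CPM per kilobase.

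Mt1 was low in fed mice and high in every fasted group. In fed pericentral libraries it was at 4.70, 6.69 and 16.5 CPM, and in fed periportal libraries at 8.91, 13.9 and 11.6 CPM. After 8 h it stood at 340, 147 and 44.0 CPM in pericentral and 52.0, 160 and 180 CPM in periportal cells. After 24 h it stood at 325, 124 and 238 CPM in pericentral and 393, 415 and 388 CPM in periportal cells. No fasted library fell as low as any fed one, and the 3 periportal libraries at 24 h were the highest of all and close to each other.

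Mt2 was likewise low in fed and high in fasted libraries, from a lower fed level. Its fed libraries held 2.11, 2.84 and 5.18 CPM in pericentral and 2.81, 2.48 and 1.51 CPM in periportal cells. At 8 h the values were 254, 136 and 19.8 CPM in pericentral and 21.7, 104 and 154 CPM in periportal cells. At 24 h they were 187, 74.6 and 134 CPM in pericentral and 307, 315 and 176 CPM in periportal cells. Again the fed and fasted libraries did not overlap, and the libraries spread widely within each 8 h group.

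**Figure D2:**
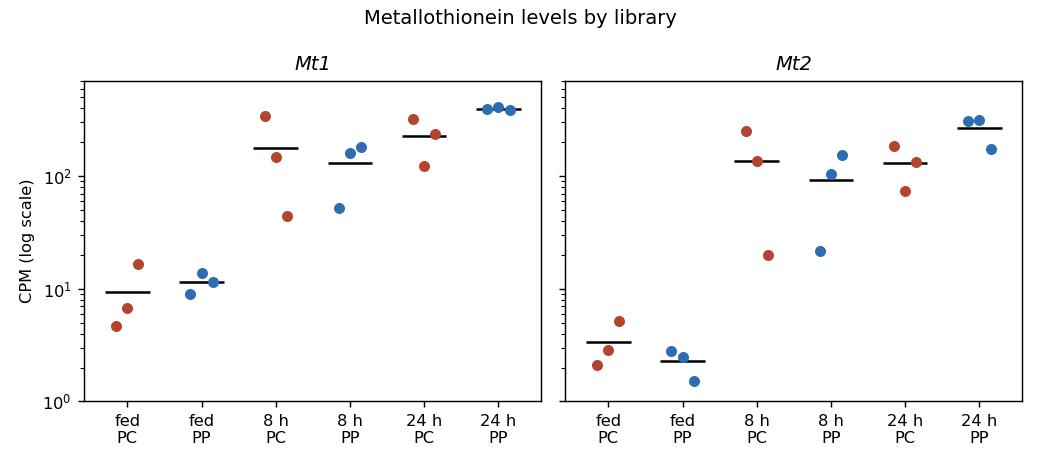
Mt1 (left) and Mt2 (right) in CPM on a log axis for each of the 3 libraries per group (points) with the group mean (line); red is pericentral (PC) and blue periportal (PP). In both panels all fed libraries lie below all fasted ones.

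As log2 fold changes against fed, Mt1 was 4.25 (SE 0.75) at 8 h and 4.62 (SE 0.76) at 24 h in pericentral cells, and 3.51 (SE 0.72) and 5.12 (SE 0.77) in periportal cells. For Mt2 the same differences were 5.34 (SE 0.93), 5.29 (SE 0.93), 5.37 (SE 0.95) and 6.88 (SE 1.0). Without the second pericentral library at 24 h, the pericentral 24 h differences from fed were 4.92 for Mt1 and 5.57 for Mt2. The 8 h and 24 h contrasts of a zone share their fed libraries. The values for Mt2 exceed those for Mt1 in each contrast. The share of Mt2 in the summed counts of both genes ranged from 11.4 to 30.9% in fed libraries (median 23.8%, n = 6) and from 29.4 to 48.1% in fasted ones (median 38.6%, n = 12).

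The zones did not differ detectably for the metallothioneins. Periportal minus pericentral, Mt1 was at log2 0.31 (fed), -0.44 (8 h) and 0.80 (24 h; edgeR adjusted p 0.861, 0.767 and 0.601), and Mt2 at -0.58, -0.55 and 1.02 (adjusted p 0.804, 0.744 and 0.554). The 95% intervals at 24 h, -0.60 to 2.19 for Mt1 and -0.60 to 2.64 for Mt2, leave room for a several-fold difference in favour of periportal cells. From 8 to 24 h periportal Mt1 was higher by log2 1.61 and Mt2 by 1.51 with no overlap of libraries, yet neither passed the test (edgeR adjusted p 0.167 and 0.264). In pericentral cells the same differences were 0.37 and -0.05.

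Ordered by level, Mt1 ran from periportal 24 h (mean 399 CPM) through pericentral 24 h (229), pericentral 8 h (177), periportal 8 h (131) and fed periportal (11.5) to fed pericentral (9.31). The first 2 groups did not overlap, nor did the last fasted and first fed group, while the other neighbours did. For Mt2 the order was periportal 24 h (266 CPM), pericentral 8 h (137), pericentral 24 h (132), periportal 8 h (93.3), fed pericentral (3.37) and fed periportal (2.26), and only the step from fasted to fed separated neighbours.

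Across the 18 libraries the mean of Mt1 and Mt2 was most like Sesn2 (Pearson r of log2 CPM 0.954), Sdc4 (0.947), Susd6 (0.944), Pnpla2 (0.942) and Wbp1l (0.935) among 8049 genes. These libraries share their groups, so any gene that differs strongly between fed and fasted mice will score high. Mt1 and Mt2 themselves had r = 0.983, and 0.918 once group means were removed.

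Mtf1, the transcription factor through which zinc acts on metallothionein genes, was even across the groups. Fed libraries held 20.5, 18.7 and 18 CPM in pericentral and 16.4, 16.3 and 21.0 CPM in periportal cells. At 24 h the values were 18.2, 14.0 and 15.1 CPM in pericentral and 16.8, 16.8 and 17.5 CPM in periportal cells, and the groups overlapped with fed in both zones. Its log2 difference from fed lay between -0.27 (pericentral, 24 h, SE 0.12, edgeR adjusted p 0.111, 95% interval -0.52 to -0.02) and 0.03 (periportal, 8 h). The pericentral 24 h value did not pass with DESeq2 or limma-voom either, though its unadjusted p was 0.0337. Without the first pericentral library at 24 h it was called (-0.40, edgeR adjusted p 0.0336). Without the second, the library that stood apart, it was -0.19 (adjusted p 0.338). The message says nothing of the protein's activity, which was not measured here.

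Slc30a10, the manganese exporter, was the gene with the clearest tested differences. It was the 1 of 8 members called between the zones, always as higher in periportal cells, in the fed state (8.01% of all genes called in either direction), after 8 h (7.14%) and after 24 h (4.17%). Fed pericentral libraries held 62.2, 39.9 and 51.3 CPM and fed periportal libraries 101, 96.0 and 65.2 CPM. At 8 h the values were 67.3, 60.8 and 63.0 CPM against 144, 147 and 127 CPM, and at 24 h 8.36, 10 and 7.56 CPM against 22.8, 32.1 and 47.1 CPM. In each state every periportal library exceeded every pericentral one, and the 24 h libraries of each zone lay below all others of that zone.

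The zone gap of Slc30a10 was log2 0.77 when fed (SE 0.22, adjusted p 0.0419 by edgeR). It was 1.13 after 8 h of fasting (SE 0.22, adjusted p 0.00483). After 24 h it was 1.97 (SE 0.24, adjusted p 0.000257). The fed value lost its call in 16 of 26 alternatives (adjusted p up to 0.187), the others in none. Without the second pericentral library the 24 h gap was 2.09 (adjusted p 0.000544). Bile duct markers also ran higher in periportal cells: their sum was 25 to 31 CPM in fed pericentral and 34.6 to 56.7 CPM in fed periportal libraries, and 19.3 to 23.4 against 32.8 to 52.6 CPM at 24 h. Of that list the defining Epcam was at 0 in all 18 libraries and Krt19 reached at most 0.506 CPM, while Krt7, Sox9 and Spp1 made up most of the sum, and the part of bile duct cells in the zone gap was not tested.

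After 24 h of fasting Slc30a10 fell in both zones. Of the 6 members apart from Mt1 and Mt2, 2 changed in pericentral cells at 24 h (21.8% of all genes called), Slc39a5 upward and Slc30a10 downward, and 1, Slc30a10, in periportal cells (19.6%). The log2 change of Slc30a10 was -2.56 in pericentral cells (SE 0.24, edgeR adjusted p 5.76e-06; mean 51.1 ± 11.1 to 8.64 ± 1.24 CPM, SD, n = 3) and -1.36 in periportal cells (SE 0.22, adjusted p 0.000666; 87.4 ± 19.4 to 34.0 ± 12.3 CPM). Leaving out the second pericentral library at 24 h gave -2.68 (adjusted p 4.33e-05). In pericentral cells 7 of 8 periportal markers rose over the same interval. Of the bile duct markers, Sox9 fell with Slc30a10 in pericentral cells, by 0.84 from fed to 24 h (adjusted p 0.00559) and by 1.33 from 8 to 24 h (adjusted p 0.000678), and by 1.09 from 8 to 24 h in periportal cells (adjusted p 0.00239). Spp1 was at -0.68 and Krt7 at -0.08 from fed to 24 h in pericentral cells (edgeR adjusted p 0.145 and 0.836). In periportal cells over that interval Sox9 was at -0.51, Spp1 at 0.07 and Krt7 at 0.13 (adjusted p 0.0649, 0.914 and 0.722). From 8 to 24 h Spp1 and Krt7 were at -0.51 and -0.24 in pericentral cells, without a call. The periportal values were -0.17 and 0.11, also uncalled. The part of bile duct cells in the fall was not tested.

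The fall came between 8 and 24 h. At 8 h Slc30a10 was at log2 0.32 against fed in pericentral cells (edgeR adjusted p 0.398) and 0.68 in periportal cells, where the libraries did not overlap with fed but the adjusted p was 0.0508, and 8 of 26 alternatives called it. From 8 to 24 h it fell by 2.88 in pericentral cells (adjusted p 9.44e-06) and by 2.03 in periportal cells (adjusted p 0.000178). In that interval 2 of 8 members were called in pericentral cells (9.71% of all genes), Slc39a5 upward and Slc30a10 downward, and 1 of 8 in periportal cells (7.46%). Since the 8 h and 24 h mice were killed at different clock hours, fasting time and clock hour cannot be told apart in this step.

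Whether the fall differed between the zones was tested as an interaction. The periportal change from fed to 24 h was less negative by log2 1.20 (SE 0.32, unadjusted p 0.0018), which did not pass over all genes (edgeR adjusted p 0.345, range over alternatives 0.0539 to 0.722). None of the 8 members passed for fed to 8 h (0% of all genes called) or fed to 24 h (0.0160%), by edgeR, DESeq2 or limma-voom. At an unadjusted p under 0.05 the edgeR counts were 0 of 8 (5.45% of all genes) and 1 of 8 (7.71%).

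By level, Slc30a10 ran from periportal 8 h (139 CPM) through fed periportal (87.4), pericentral 8 h (63.7), fed pericentral (51.1) and periportal 24 h (34.0) to pericentral 24 h (8.64). The first and last steps separated neighbouring groups and the 3 between them did not. The genes most like it over 18 libraries were Stra6l (r = 0.953), Tars (0.947), Galnt10 (0.925), Ergic1 (0.924) and Sox9 (0.913). Sox9 is one of the bile duct markers whose sum is given with the zone gap.

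**Figure D3:**
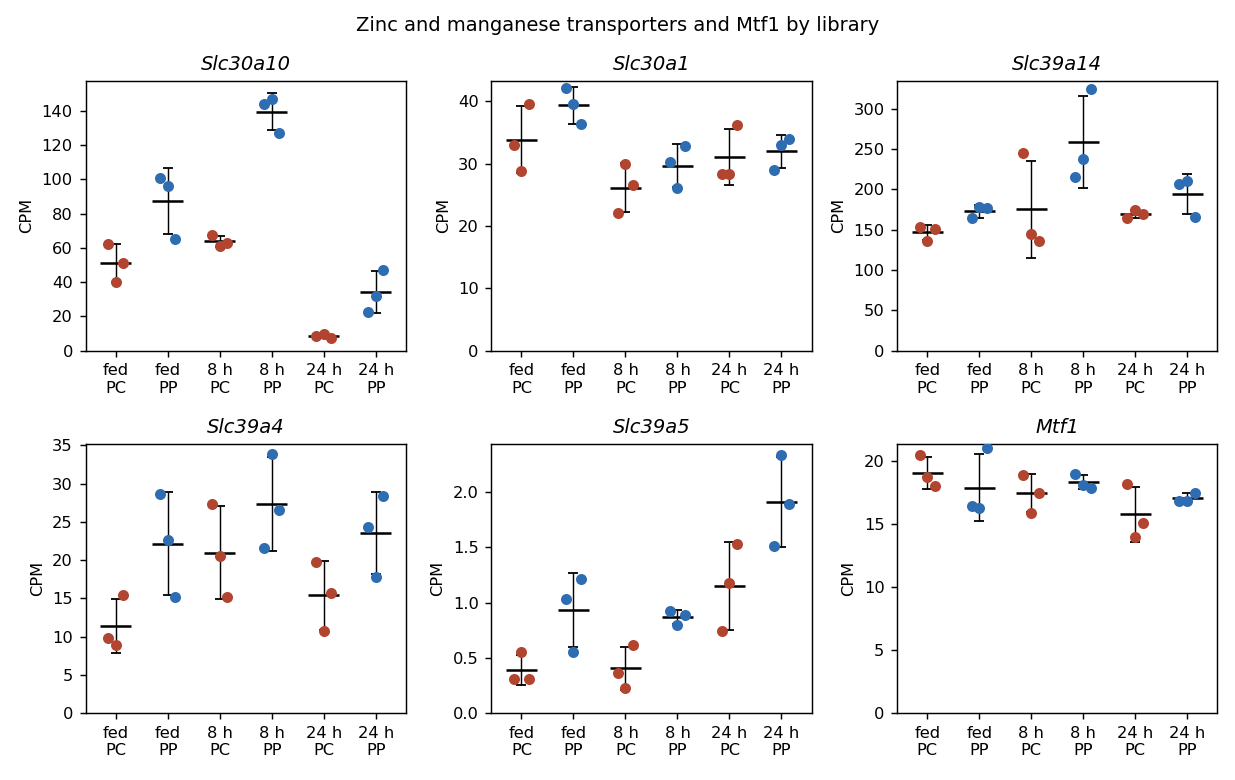
CPM of Slc30a10, Slc30a1, Slc39a14, Slc39a4, Slc39a5 and Mtf1 in each of the 3 libraries per group (points), with the mean (line) and SD (bars); red is pericentral (PC) and blue periportal (PP). Slc30a10 drops to 8.64 CPM (pericentral) and 34.0 CPM (periportal) at 24 h, and Mtf1 stays between 14.0 and 21.0 CPM.

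Slc30a1, the plasma membrane zinc exporter, did not pass edgeR's test in any contrast of fasted with fed mice. Fed libraries held 33.0, 28.9 and 39.6 CPM in pericentral and 42.1, 39.6 and 36.3 CPM in periportal cells. At 8 h the values were 22.1, 29.9 and 26.5 CPM in pericentral and 30.2, 26.1 and 32.8 CPM in periportal cells. At 24 h they were 28.4, 28.4 and 36.2 CPM and 29.0, 33.0 and 33.9 CPM. In periportal cells every fasted library lay below every fed one, and in pericentral cells the groups overlapped. The log2 differences from fed were -0.37 (pericentral, 8 h, edgeR adjusted p 0.0923), -0.41 (periportal, 8 h, adjusted p 0.0616), -0.13 (pericentral, 24 h, adjusted p 0.57) and -0.30 (periportal, 24 h, adjusted p 0.152). The periportal 8 h value passed in 4 of 26 alternatives.

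Among the importers, Slc39a14 rose in periportal cells at 8 h, the 1 of the 6 members other than the metallothioneins called in that contrast (14.4% of all genes called). Fed periportal libraries held 164, 178 and 177 CPM and 8 h libraries 216, 238 and 324 CPM, without overlap. The log2 change was 0.58 (SE 0.19, edgeR adjusted p 0.0456), and the call was lost in 16 of 26 alternatives (adjusted p up to 0.21). In pericentral cells the fed libraries were at 153, 136 and 151 CPM and the 8 h libraries at 245, 145 and 136 CPM. There the log2 difference was 0.26 (adjusted p 0.414), and without the first 8 h library it was -0.06. At 24 h both zones were near the fed level, at 164, 174 and 170 CPM in pericentral and 207, 211 and 166 CPM in periportal cells.

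In pericentral cells at 8 h none of those 6 members passed edgeR's test (13.8% of all genes called). At an unadjusted p under 0.05 there were 2, Slc39a4 and Slc30a1 (26.7% of all genes), DESeq2 called 1 and limma-voom 0. Slc39a4, the main importer of dietary zinc in the intestine, was at 9.85, 8.90 and 15.5 CPM in fed and 27.3, 20.5 and 15.2 CPM in 8 h pericentral libraries, overlapping by 1 library (log2 0.88, SE 0.30, edgeR adjusted p 0.0682). In fed periportal cells it was at 28.6, 22.6 and 15.2 CPM, a zone difference of log2 0.96 (SE 0.30, adjusted p 0.0703). Its other zone differences were 0.38 at 8 h and 0.61 at 24 h. With group means removed, Slc39a14 and Slc39a4 followed Mt1 across the 18 libraries with r = 0.64 and 0.68, as a description. Within the 8 h pericentral group all 3 genes were highest in the same library, the first.

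Slc39a5, a zinc importer of the basolateral membrane of pancreas and intestine, was the rarest member. Fed pericentral libraries held 0.311, 0.551 and 0.311 CPM and 24 h pericentral libraries 0.742, 1.18 and 1.53 CPM, without overlap. In periportal cells the fed libraries held 1.03, 0.559 and 1.21 CPM and the 24 h libraries 1.51, 2.33 and 1.89 CPM, again without overlap. The gene rose at 24 h in pericentral cells by log2 1.54 (SE 0.42, edgeR adjusted p 0.014), and the periportal difference was 1.03 (SE 0.39, adjusted p 0.0732). From 8 to 24 h the pericentral change was 1.47 (SE 0.42, adjusted p 0.0351) and the periportal one 1.13 (adjusted p 0.0905). The pericentral call at 24 h was lost without the first or the third fed library (adjusted p 0.0598 and 0.0567) or the third 24 h library (0.0643), and leaving out the second 24 h library kept it (0.0346). The 8 to 24 h call was lost in 7 of 25 alternatives (adjusted p up to 0.143), among them those without the first or the second 8 h library (0.118 and 0.135) and without the second or the third 24 h library (0.0811 and 0.143). Its zone differences, 1.25, 1.08 and 0.74 for fed, 8 h and 24 h, did not pass (adjusted p 0.0801, 0.145 and 0.347). The genes most like it were Acad11 (r = 0.892 over 18 libraries), Retsat (0.882), Igf1 (0.868), Gsto1 (0.865) and S100a13 (0.856).

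**Figure D4:**
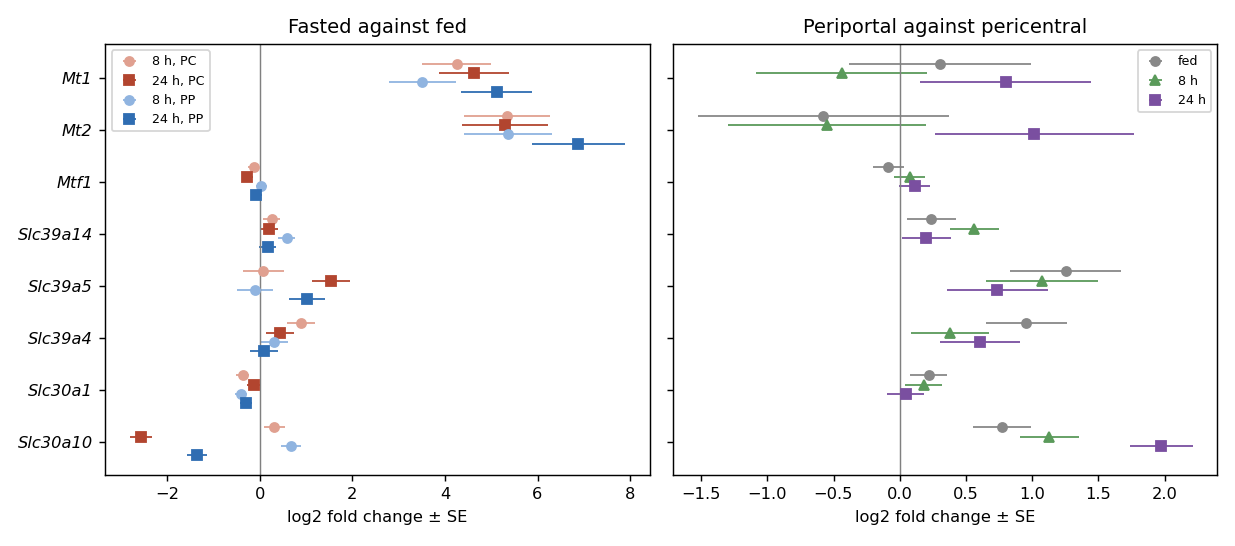
Log2 fold change ± SE of the 8 members for fasted against fed (left) and periportal against pericentral (right), from 3 libraries per group. Mt1 and Mt2 lie between 3.51 and 6.88 on the left, Slc30a10 is at -2.56 and -1.36 at 24 h, and on the right Slc30a10 increases from 0.77 to 1.97 from fed to 24 h.

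The other zinc transporters, 20 genes of which 1 is Tmem163, give the setting for these values. Of these, 17 passed the filter on low counts, and Slc39a12, Slc30a2 and Slc30a8 did not. At 8 h, 2 of 17 were higher in pericentral cells (13.8% of all genes called in either direction). In periportal cells 1 was higher and 1 lower (14.4%). At 24 h, 2 were higher and 3 lower in pericentral cells (21.8%), and 2 were lower in periportal cells (19.6%). The median log2 difference of the 17 was between -0.20 and 0.01, close to that of all genes tested in each contrast (-0.002 to 0.015).

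Slc39a8, a zinc and manganese importer, rose in both zones at 8 h and was also higher in periportal cells. Its means were 17.6 ± 0.371 CPM in fed and 27.8 ± 2.25 CPM in 8 h pericentral cells (log2 0.66, edgeR adjusted p 0.000185), and 26 ± 2.18 and 40.9 ± 0.747 CPM in periportal cells (log2 0.65, adjusted p 0.000227; SD, n = 3). At 24 h it was still higher than fed in pericentral cells (0.47, edgeR adjusted p 0.00222), and the periportal difference from fed was not called. From 8 to 24 h it fell by 0.53 in periportal cells (adjusted p 0.00346), and the pericentral change was not called. None of the 17 was called for a zone difference in the change from fed to 24 h. Between zones, log2 differences of 0.56 when fed (adjusted p 0.00111), 0.56 after 8 h (0.00126) and 0.22 after 24 h (0.228) were found. The Slc39a8 calls against fed and between zones held in all 26 alternatives.

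Slc39a10, another plasma membrane importer, fell at 24 h in both zones, by log2 1.33 in pericentral cells (6.34 ± 1.0 to 2.56 ± 1.55 CPM, edgeR adjusted p 0.00575) and by 1.35 in periportal cells (8.55 ± 0.82 to 3.35 ± 0.689 CPM, adjusted p 0.00527). At 8 h it fell by 0.96 in periportal cells (adjusted p 0.0401, lost in 8 of 26 alternatives). Slc39a7, which releases zinc from the endoplasmic reticulum, fell at 24 h by 0.50 in pericentral (adjusted p 0.0142) and 0.58 in periportal cells (adjusted p 0.00673). Slc39a9 fell by 0.27 at 24 h in pericentral cells (adjusted p 0.0267, lost in 6 of 26 alternatives and at 0.0529 without the second 24 h library). Slc30a4 rose by 0.43 at 8 h in pericentral cells (adjusted p 0.0356, lost in 8). Tmem163, a zinc-binding transporter, rose at 24 h in pericentral cells from 0.0738 to 0.71 CPM (log2 3.16, SE 0.93, adjusted p 0.0224, lost in 5 and at 0.0845 without the second 24 h library), at levels under 1 CPM.

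**Figure D5:**
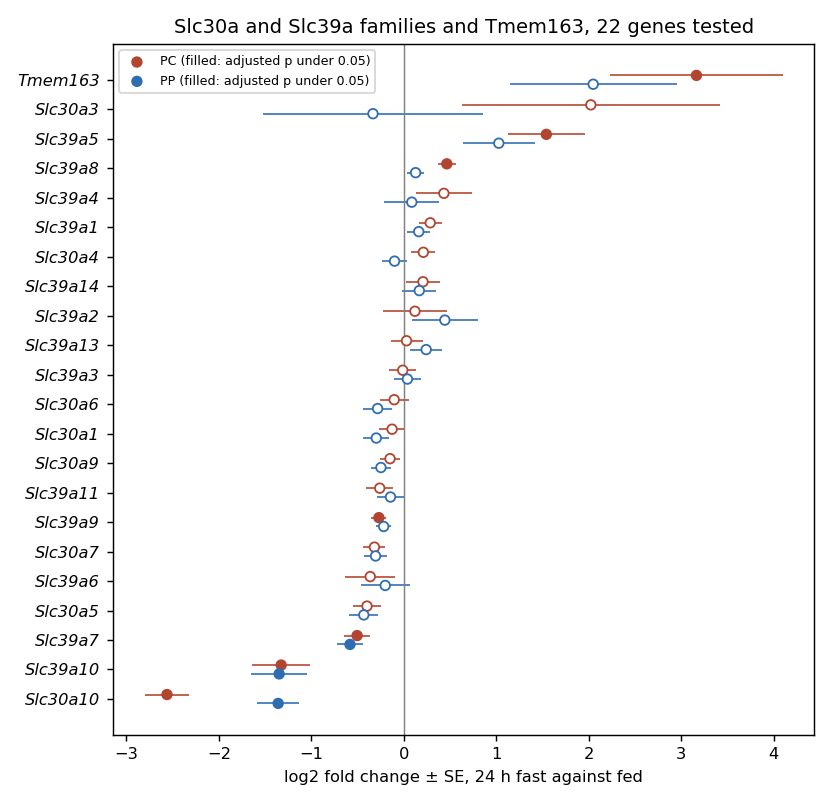
Log2 fold change ± SE at 24 h against fed for the Slc30a and Slc39a genes and Tmem163 that were tested, with red for pericentral (PC) and blue for periportal (PP); filled points passed the test. Slc30a10 and Slc39a10 are the lowest in both zones, and most genes lie near 0.

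Glucocorticoid targets, a list chosen because glucocorticoids induce metallothioneins, were tested in the same contrasts. Of 11 tested, 5 rose at 8 h and 7 at 24 h in pericentral cells (13.8% and 21.8% of all genes called). In periportal cells 4 and 9 rose (14.4% and 19.6%). The median log2 difference of the list was 0.91, 1.37, 1.08 and 1.28 in the same order, against medians of all genes between -0.002 and 0.015. Klf9, a transcription factor induced by glucocorticoids, rose by 1.73 and 1.79 in pericentral and by 1.54 and 1.46 in periportal cells at 8 h and 24 h (edgeR adjusted p 9.82e-07, 8.01e-07, 3.42e-06 and 6.63e-06). Their part in the metallothionein levels was not tested.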

How the data were processed

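RNA-seq of 18 libraries was used. The values are estimated counts, not whole numbers, in 1 gene table that the authors deposited, and the submitters' processing notes name kallisto 0.46.0 and mm10. No step is recorded for how reads shared by similar genes were divided. Counts were rounded, genes with low counts removed with edgeR's default filter, TMM scaling applied, and a robust quasi-likelihood model of the 6 groups fitted to all 12477 genes tested (R 4.3.3, edgeR 4.0.16), with Benjamini-Hochberg adjustment over all of them and calls at an adjusted p under 0.05. The fit was also run on counts simulated from its own means and spread, with changes placed in genes of at least 1 CPM. Such a run cannot check the assumptions of the model or cover rarer genes. Alternatives used DESeq2 1.42.0, limma 3.58.1, other filters and scalings, the contrast's groups alone, and leaving out each library. CPM used TMM library sizes, with a prior count of 2 for log2 CPM. Total counts per library of 18400000 to 26400000 limit the precision for genes near 1 CPM.

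The members and gene lists were chosen with earlier results of these data known. Whether the values of the 6 members other than Mt1 and Mt2 had been seen by then is not recorded. All members were named, with other zinc transporters called in a zone or fasting contrast, at most 3 genes of any further list by smallest p, and the 5 most similar genes by correlation. Coordinates are GRCm38 from GENCODE M21. The labels do not say that replicate numbers pair libraries. Of 45 same-number correlations of deviations from the group means, 7 were over 0.1, and the zones at 24 h were the pair of groups in which all 3 were (0.121, 0.165 and 0.147), so these were treated as paired in a further fit, added after seeing the data, with the number as a block for the 24 h libraries. It changed no zone call among the members at 24 h.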

Additional observations from a re-analysis of the deposited data

How the results depend on the processing

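Counts of calls are given over the contrasts together. Zone calls among members were 3, with 5 by the DESeq2 Wald test and 2 to 4 without single libraries. DESeq2 also called more of all genes, 1315 against 1000 between zones in fed mice and 2067 against 1727 at 8 h in pericentral cells. Fasting calls among the 6 other members were 4, with 7 by DESeq2 and 2 to 5 without single libraries, 2 being without the third pericentral library at 24 h. Calls of 24 h against 8 h stayed at 2 to 3 and zone difference calls at 0 in every alternative. Among other zinc transporters, 11 fasting calls became 7 to 15 without single libraries, 7 being without the second fed pericentral library, and 2 zone calls became 2 to 5. With the replicate number as a block, zone calls among members were 2, with Slc30a10 in fed mice at 0.77 (edgeR adjusted p 0.0661), and fasting calls were 4. With the block for the 24 h libraries alone, zone calls among members stayed at 3, and Slc30a10 at 24 h was at 1.92 (edgeR adjusted p 0.000433). Same-number correlations ranged from -0.12 to 0.21 (median 0.032), and 23 of 54 library comparisons were best with their own number. Each comparison chose among 3 libraries, so part of these matches would arise without any pairing.

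Among the differences of members and other zinc transporters that were checked under the alternatives, the ones that changed sign were uncalled. Without single libraries, Mt1 ranged from -0.021 to 1.01 (zone, fed), from -0.91 to 0.45 (zone, 8 h), from -0.11 to 1.26 (24 h against 8 h, pericentral) and from -0.21 to 0.84 (zone difference to 24 h). Mt2 ranged from -1.12 to 0.26 (zone, 8 h) and from -0.59 to 0.75 (24 h against 8 h, pericentral). The latter was 0.0026 with the replicate block, 0.48 by limma-voom and 0.20 with counts of Mt1 and Mt2 added, which also gave 0.12 for the zone difference in fed cells. Slc39a14 at 8 h in pericentral cells ranged from -0.058 to 0.42. The cause of these changes was not tested. Depth limits Slc39a5 and Tmem163 most.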

Other observations

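Metallothioneins also bind copper, and 10 copper handling genes were tested. At 8 h 1 was called in each zone, and at 24 h 3 in pericentral and 2 in periportal cells, where 13.8% and 14.4% of all genes were called at 8 h and 21.8% and 19.6% at 24 h. Atp7b, the copper exporter of hepatocytes, fell by log2 0.76 at 8 h and 0.59 at 24 h in pericentral cells (edgeR adjusted p 0.0172 and 0.041). The periportal falls were 0.67 and 1.21 (adjusted p 0.0312 and 0.000615). Slc31a1, the copper importer, fell by 0.39 and 0.44 at 24 h in pericentral and periportal cells (adjusted p 0.0081 and 0.00451). Of the 10 genes of the list 1 rose, Ccs at 24 h in pericentral cells (0.28, adjusted p 0.0415).

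Acute phase genes, of which several are induced with metallothioneins in inflammation, gave 3 higher of 15 at 8 h and 2 higher and 1 lower at 24 h in pericentral cells, and 2 and 1 higher in periportal cells. These counts are near or below the shares of all genes called in the same contrasts. Il6ra, the interleukin 6 receptor, was the gene called in all 4 contrasts (1.31, 1.55, 1.28 and 1.31; edgeR adjusted p 0.00695, 0.00157, 0.00861 and 0.00586). The counts of NRF2 targets are likewise near or below those shares. Their median log2 differences were -0.28 at 8 h and -0.40 at 24 h in pericentral cells, and -0.26 and -0.57 in periportal cells. Of 9 NRF2 targets tested, 2 fell in pericentral cells at 24 h, Txnrd1 by 0.61 (adjusted p 0.00268) and Srxn1 by 0.86 (adjusted p 0.00767), and in periportal cells Gclm fell by 0.40 at 8 h (adjusted p 0.0369) and Osgin1 by 1.68 at 24 h (adjusted p 0.027).

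With group means removed, a comparison chosen after seeing the data, the mean of Mt1 and Mt2 was most like Nnmt (r = 0.866 over 18 libraries), Fbxo36 (0.862), Ctps2 (0.839), Rdh5 (0.837) and Myh10 (0.815). Nnmt, nicotinamide N-methyltransferase, is an enzyme of nicotinamide metabolism in liver.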
